A study of Mus musculus with 16 samples.

Results

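The genes of cholesterol synthesis and its feedback control *Hmgcs1*, *Idi1*, *Fdps*, *Fdft1*, *Sqle*, *Lss*, *Cyp51* and *Insig1* were followed through the first 6 days of reprogramming of mouse embryonic fibroblasts (MEFs) to induced pluripotent stem cells. They were chosen by name from 18990 genes in the expression table, with earlier results of these data known. All 8 of 8 were among the 14028 genes with a mean log2 CPM (read counts scaled to library size) of at least 0 that entered the tests. The set carries the working name of cholesterol synthesis and uptake, but no member is an uptake gene: 7 code for enzymes of the pathway and *Insig1* for a regulator.

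Cells make cholesterol from acetyl-CoA through mevalonate, the isoprenoids, squalene and lanosterol. When sterols in the endoplasmic reticulum run low, SCAP carries the transcription factor SREBP2 to the Golgi for cleavage, and the released factor raises the genes of this pathway and of sterol uptake. INSIG proteins hold SCAP back when sterols are plentiful, and *Insig1* is itself a target of the pathway, so the enzyme genes are known to move as a group in many cell types, fibroblasts included.

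The cells were primary MEFs of wild-type genotype and BL6 strain, transduced with lentiviruses carrying a tet-inducible cassette of Oct4, Sox2, Klf4 and c-Myc (tet-STEMCCA) and the rtTA activator, and reprogrammed at passage 2. All 8 groups received 40 nM pooled siRNAs and then doxycycline, chiron (a GSK3 inhibitor), an Alk5 inhibitor, ascorbic acid and LIF in medium with 10% serum, which itself carries cholesterol. The groups were non-targeting siRNA (nt, the control), siWdr5, siBrca1 and siBard1, each collected at day 3 and at day 6, with 2 libraries per group, 16 in all, from independent experiments. *Wdr5* codes for a subunit of histone H3K4 methyltransferase complexes, and *Brca1* and *Bard1* for the partners of a DNA repair ubiquitin ligase. RNA was taken from the whole culture, a mixture of cells at different stages, so that fewer cells of a type and less RNA per cell cannot be told apart, and p-values measure the spread between these samples only.

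The libraries held 11169738 to 26832534 reads in genes. The targeted gene was lower at day 3 in each knockdown, by limma with adjustment over all genes: the log2 fold change of *Wdr5* under its own siRNA was −1.31 (adjusted p = 3.02e-06), that of *Brca1* −1.57 (adjusted p = 7.90e-05) and that of *Bard1* −0.62 (adjusted p = 0.0422). The targets also moved under the other siRNAs. *Bard1* was at 30.5 and 29.1 CPM in nt, 18.01 and 20.8 CPM in siBard1, 13.9 and 15.3 CPM in siWdr5 and 14.4 and 9.07 CPM in siBrca1, so both other knockdowns held less of it than siBard1 did. *Brca1* fell by 0.86 on the log2 scale in siWdr5 (adjusted p = 0.00796) and was at −0.38 in siBard1 (adjusted p = 0.258), and *Wdr5* fell by 0.87 in siBrca1 and by 0.48 in siBard1 (adjusted p = 2.48e-05 and 0.00900). By day 6 the values of the targets under their own siRNAs were −0.27, 0.01 and 0.11, and none passed. The 8 fibroblast markers summed to 7790 to 8907 CPM in the nt libraries of day 3 and to 4458 and 4475 CPM at day 6. Singly they were split, with 3 passing as higher and 3 as lower at day 6, against 19% and 27.1% of all genes. The 8 epithelial markers summed to 77.1 to 98.1 CPM at day 3 and to 602 to 805 CPM at day 6. Endothelial markers summed to at most 3.28 CPM in any group and macrophage markers to at most 22.7 CPM.

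Promoters are shown for the members that passed a test against the control at day 3, as far as a RefSeq promoter (GRCm38.p6, 250 bases before to 50 after the gene start) was at hand, since SREBP2 acts at the promoters of this pathway. Of the 8 members 5 matched an entry, *Hmgcs1*, *Idi1*, *Lss*, *Insig1* and *Cyp51*, and 4 of them are printed. Capitals mark matches on either strand to TCACNCCAC, the classical sterol regulatory element, and to CCAAT, the box read by NF-Y. The matches to these motifs did not overlap. The promoters lie at chr13:119690101-119690400 (plus strand, *Hmgcs1*), chr10:76531355-76531654 (plus strand, *Lss*), chr5:4104648-4104947 (minus strand, *Cyp51*) and chr5:28071162-28071461 (plus strand, *Insig1*).
Hmgcs1: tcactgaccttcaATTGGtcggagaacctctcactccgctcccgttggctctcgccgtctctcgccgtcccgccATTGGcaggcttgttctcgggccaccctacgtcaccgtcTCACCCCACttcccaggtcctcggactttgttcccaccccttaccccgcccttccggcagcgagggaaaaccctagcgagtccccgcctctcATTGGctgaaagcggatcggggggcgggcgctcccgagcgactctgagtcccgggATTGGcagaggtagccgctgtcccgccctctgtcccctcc
Lss: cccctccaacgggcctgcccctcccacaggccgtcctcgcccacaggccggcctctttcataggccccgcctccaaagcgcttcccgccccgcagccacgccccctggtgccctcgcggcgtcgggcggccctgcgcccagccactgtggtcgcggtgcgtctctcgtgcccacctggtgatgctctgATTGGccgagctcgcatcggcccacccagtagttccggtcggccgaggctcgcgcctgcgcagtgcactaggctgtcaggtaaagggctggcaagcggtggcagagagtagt
Cyp51: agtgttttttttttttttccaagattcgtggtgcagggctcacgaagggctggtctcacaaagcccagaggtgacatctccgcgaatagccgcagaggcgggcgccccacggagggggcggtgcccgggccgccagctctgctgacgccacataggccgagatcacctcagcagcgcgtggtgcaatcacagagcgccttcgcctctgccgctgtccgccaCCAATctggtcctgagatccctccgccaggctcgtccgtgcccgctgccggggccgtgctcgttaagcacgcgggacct
Insig1: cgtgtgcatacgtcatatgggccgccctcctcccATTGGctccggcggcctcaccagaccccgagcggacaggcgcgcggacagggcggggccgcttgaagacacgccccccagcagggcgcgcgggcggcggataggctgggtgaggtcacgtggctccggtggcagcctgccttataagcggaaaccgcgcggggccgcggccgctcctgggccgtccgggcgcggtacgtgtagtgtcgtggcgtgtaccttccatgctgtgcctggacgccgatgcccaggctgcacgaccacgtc

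TCACNCCAC was present in the *Hmgcs1* promoter alone of the 5, against 1.24% of all 32851 mouse promoters of that length. CCAAT was present in 5 of 5 (37.4% of all promoters), 4 times in *Hmgcs1* and once each in *Lss*, *Cyp51* and *Insig1*, and GGGCGG, the GC box, also in 5 of 5 (35.7%). A match is a run of letters, not a measured binding site. Only these exact runs were searched, so a promoter without a match is not shown to lack a sterol regulatory element.

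Levels between genes were compared per kilobase of exon, on the CPM scale. In the nt libraries of day 3 *Cyp51* was highest at 17.0 ± 0.94 CPM per kb (SD, n = 2), followed by *Fdft1* at 12.8 ± 0.81, *Insig1* at 12.0 ± 0.13, *Sqle* at 11.8 ± 1.34 and *Hmgcs1* at 11.6 ± 0.23. From *Fdft1* to *Hmgcs1* each gene differed from the next by less than the sum of their SDs, while *Fdft1* and *Hmgcs1* themselves lay further apart than that. *Lss* followed at 4.25 ± 0.074, *Idi1* at 1.20 ± 0.40 and *Fdps* at 0.708 ± 0.13 CPM per kb.

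*Fdps* and *Idi1* were thus far below the enzymes before and after them in the pathway, and the counts of both are uncertain. Of the exon bases of *Fdps* 26.7% also belong to *Gm43738*, a protein-coding gene model on the same strand, and 26.96% of its 43-base windows (the read length) occur in 8 other genes, 7 of them pseudogenes. For *Idi1* 25.9% of the windows occur elsewhere, largely in pseudogenes. *Fdps* rested on 22 to 82 reads per library and *Idi1* on 36 to 173. The count of *Fdft1* is uncertain too, since 28.2% of its windows, the highest share of the 8, occur in *Ctsb* or in the pseudogene *Gm6781*. *Fdft1* shares 18.3% of its exon bases with *Ctsb* on the opposite strand, a gene at a mean of 901 CPM, and *Hmgcs1* 12.1% with the antisense gene *Gm48342*, and how the counting treated strand is not given in the sources used here. *Sqle*, *Insig1*, *Lss* and *Cyp51* shared at most 3.13% of their windows.

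**Figure D1:**
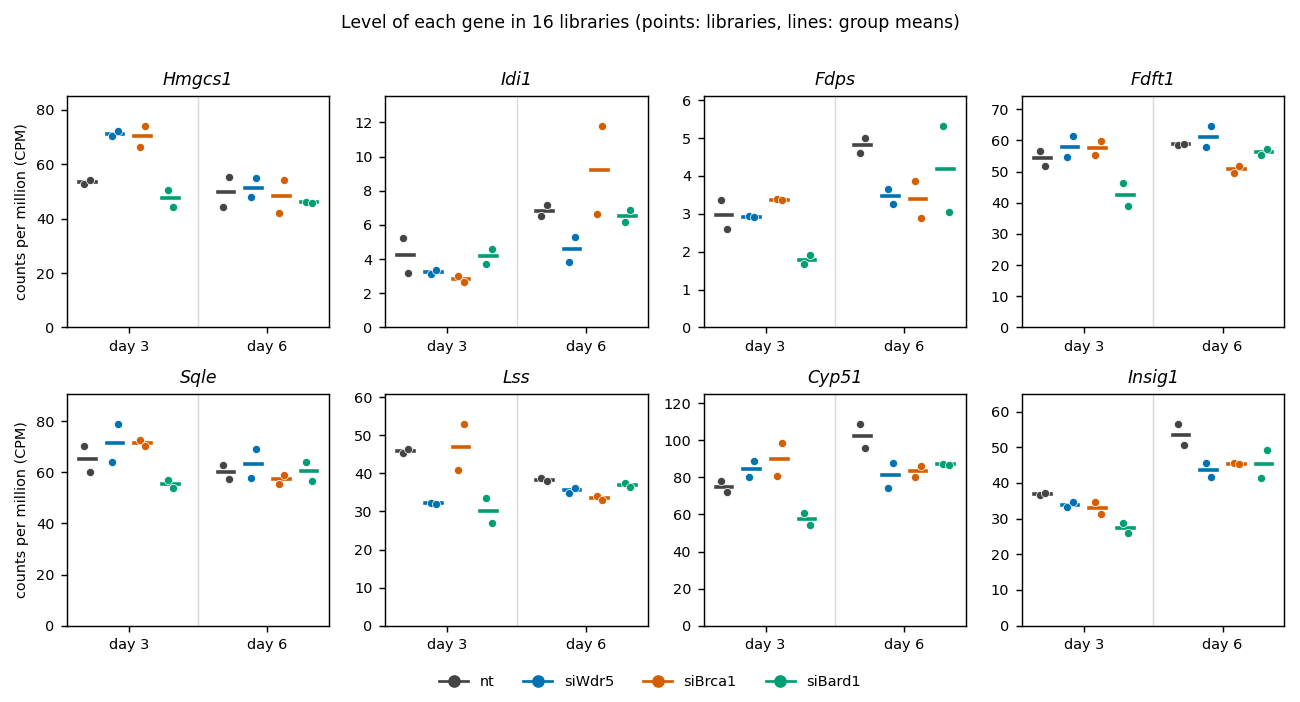
Level of each gene in CPM (vertical axis, linear from 0) in the 16 libraries, by day and siRNA; points are libraries and lines are group means of 2. At day 3 both siBard1 libraries (green) are below both nt libraries for 7 genes, all but *Idi1*, while *Hmgcs1* is above nt in siWdr5 and siBrca1. The share of all genes with such a gap is not given here.

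*Hmgcs1* codes for HMG-CoA synthase, an early enzyme of the mevalonate pathway (ENSMUSG00000093930, chromosome 13, 119690379 to 119708260, GRCm38). At day 3 *Hmgcs1* was at 52.7 and 54.2 CPM in nt, 70.2 and 72.01 CPM in siWdr5, 66.4 and 74.1 CPM in siBrca1 and 50.5 and 44.3 CPM in siBard1. The siWdr5 and siBrca1 libraries were all above the nt and siBard1 libraries. Against nt *Hmgcs1* rose in siWdr5 by a log2 fold change of 0.41 ± 0.11 (SE, adjusted p = 0.0114). The rise in siBrca1 was nearly as large, 0.39 ± 0.11 (adjusted p = 0.0102). In siBard1 it was −0.18 ± 0.11 (adjusted p = 0.303). At day 6 *Hmgcs1* ranged over the 8 libraries from 42.0 to 55.3 CPM, and the groups overlapped.

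*Idi1* codes for isopentenyl diphosphate isomerase, which makes the allylic isoprenoid unit (ENSMUSG00000058258, chromosome 13, 8885501 to 8892451). At day 3 *Idi1* was at 5.22 and 3.22 CPM in nt, 3.12 and 3.39 CPM in siWdr5, 3.01 and 2.67 CPM in siBrca1 and 3.71 and 4.60 CPM in siBard1. Only siBrca1 was clear of nt, below it, with a log2 fold change of −0.53 ± 0.26 that did not pass (adjusted p = 0.113). At day 6 it was at 6.53 and 7.15 CPM in nt, 3.86 and 5.29 CPM in siWdr5, 6.64 and 11.8 CPM in siBrca1 and 6.15 and 6.87 CPM in siBard1. The second siBrca1 library was the highest of the 16.

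*Fdps* codes for farnesyl diphosphate synthase, at the branch to sterols, ubiquinone and protein prenylation (ENSMUSG00000059743, chromosome 3, 89093588 to 89101959, minus strand). At day 3 *Fdps* was at 3.37 and 2.59 CPM in nt, 2.94 and 2.92 CPM in siWdr5, 3.38 and 3.37 CPM in siBrca1 and 1.68 and 1.90 CPM in siBard1. The siBard1 libraries were below the other 6 libraries of that day, with a log2 fold change against nt of −0.72 ± 0.25 that missed the threshold (adjusted p = 0.0663). At day 6 it was at 4.62 and 5.0 CPM in nt, 3.65 and 3.27 CPM in siWdr5, 3.87 and 2.90 CPM in siBrca1 and 5.32 and 3.06 CPM in siBard1. The siWdr5 and siBrca1 libraries were below the nt libraries, and siBard1 spanned them.

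*Fdft1* codes for squalene synthase, the first enzyme committed to sterols (ENSMUSG00000021273, chromosome 14, 63145150 to 63179578, minus strand). At day 3 *Fdft1* was at 56.7 and 51.9 CPM in nt, 54.6 and 61.4 CPM in siWdr5, 55.2 and 59.7 CPM in siBrca1 and 46.2 and 39.0 CPM in siBard1. The siBard1 libraries were again the lowest pair, with a log2 fold change against nt of −0.35 ± 0.12 (adjusted p = 0.0639). At day 6 the 8 libraries held 49.7 to 64.7 CPM, with the siBrca1 pair lowest at 49.7 and 51.9 CPM.

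*Sqle* codes for squalene epoxidase, a rate-limiting step (ENSMUSG00000022351, chromosome 15, 59315077 to 59331192). At day 3 *Sqle* was at 70.4 and 59.96 CPM in nt, 64.1 and 78.8 CPM in siWdr5, 72.5 and 70.3 CPM in siBrca1 and 57.1 and 53.7 CPM in siBard1. Only the siBard1 pair did not overlap nt, and its log2 fold change was −0.23 ± 0.12 (adjusted p = 0.219). At day 6 the range was 55.6 to 69.0 CPM, and each knockdown overlapped nt.

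*Lss* codes for lanosterol synthase, which closes the sterol rings (ENSMUSG00000033105, chromosome 10, 76531588 to 76557138). At day 3 *Lss* was at 45.3 and 46.4 CPM in nt, 32.2 and 32.1 CPM in siWdr5, 40.8 and 53.0 CPM in siBrca1 and 33.5 and 27 CPM in siBard1. The siWdr5 and siBard1 libraries were all below nt, and siBrca1 spanned it. In siWdr5 *Lss* fell by 0.51 ± 0.14 on the log2 scale (adjusted p = 0.0131). Under siBard1 it fell by 0.61 ± 0.14 (adjusted p = 0.0134). At day 6 the levels lay between 33.0 and 38.7 CPM.

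*Cyp51* codes for lanosterol 14-alpha demethylase, the first step from lanosterol towards cholesterol (ENSMUSG00000001467, chromosome 5, 4081145 to 4104746, minus strand). At day 3 *Cyp51* was at 77.9 and 72.1 CPM in nt, 80.3 and 88.7 CPM in siWdr5, 81.0 and 98.8 CPM in siBrca1 and 60.8 and 54.4 CPM in siBard1. The siWdr5 and siBrca1 pairs were above nt and the siBard1 pair below it. The fall in siBard1 was at the threshold, with a log2 fold change of −0.38 ± 0.12 (adjusted p = 0.0490). At day 6 it was at 108.7 and 95.8 CPM in nt, 74.4 and 88.0 CPM in siWdr5, 80.4 and 86.2 CPM in siBrca1 and 87.4 and 86.8 CPM in siBard1. All 6 knockdown libraries were then below nt, and none of the tests passed.

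*Insig1* codes for the protein that retains SCAP in the endoplasmic reticulum (ENSMUSG00000045294, chromosome 5, 28071363 to 28078662). At day 3 *Insig1* was at 36.7 and 37.3 CPM in nt, 33.4 and 34.6 CPM in siWdr5, 34.7 and 31.3 CPM in siBrca1 and 28.7 and 26.1 CPM in siBard1. Every knockdown library was below nt, and *Insig1* fell by 0.44 ± 0.12 on the log2 scale in siBard1 (adjusted p = 0.0262). At day 6 it was at 56.5 and 50.5 CPM in nt, 45.5 and 41.6 CPM in siWdr5, 45.5 and 45.3 CPM in siBrca1 and 41.4 and 49.3 CPM in siBard1. The knockdown libraries were again below nt.

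Read by knockdown, the comparisons with nt at day 3 asked what the loss of each factor did early in reprogramming. They share the nt libraries, and a gene passed at an adjusted p under 0.05 in limma over the 14028 genes. In siWdr5 1 member rose (*Hmgcs1*) and 1 fell (*Lss*), while 18.3% of all genes passed as higher and 16.8% as lower. In siBrca1 1 member rose (*Hmgcs1*) and 0 fell, against 25.4% and 21.8% of all genes. In siBard1 0 rose and 3 fell (*Lss*, *Insig1* and *Cyp51*), against 8.67% and 5.87%.

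Over the 8 members the log2 fold changes had their median at −0.37 under siBard1, 0.11 under siBrca1 and 0.04 under siWdr5. Over all genes it was at −0.02, 0.00 and −0.04. In siBard1 7 of 8 members were below 0, *Idi1* being at 0.01. No member passed with an absolute log2 fold change above 1, a second rule that 7.05%, 13.4% and 2.24% of all genes met in siWdr5, siBrca1 and siBard1. In siWdr5 and siBrca1 the members' share of calls in each direction was under that of all genes.

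These calls were sensitive to single libraries. In siWdr5 the *Hmgcs1* and *Lss* calls were lost when any of the 4 libraries was left out, and in siBrca1 the *Hmgcs1* call was lost without either nt library or without the second siBrca1 library. In siBard1, without the first or the second nt library, or without the second siBard1 library, 0 members passed as lower, and without the first siBard1 library 1 did. With the library totals in place of the authors' scaling factors 1758 of all genes passed as higher and 452 as lower, against 1216 and 823 with them, and 2 members passed as lower.

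**Figure D2:**
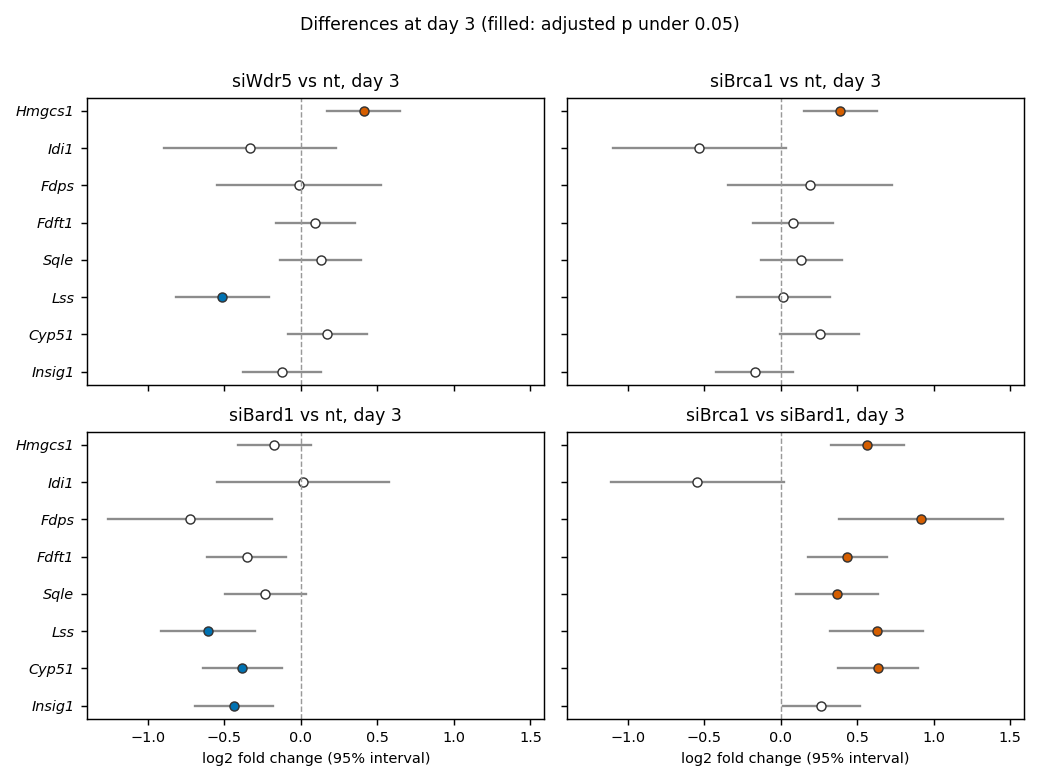
Log2 fold change of each gene at day 3 (horizontal axis) in 4 comparisons; points are fitted values, lines are 95% intervals, and filled points passed at an adjusted p under 0.05 in limma. In siBard1 against nt 7 of 8 points are left of 0, and in siBrca1 against siBard1 6 filled points are right of it.

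Comparing the knockdowns with each other asked where the siRNAs against the partners *Brca1* and *Bard1* differed. *Bard1* itself was lower in siBrca1 than in siBard1 at day 3, by a log2 difference of −0.76 (adjusted p = 0.0136), as was *Brca1* (−1.20, adjusted p = 0.00447). Between siBrca1 and siBard1 at day 3, 6 of 8 members were higher in siBrca1 and 0 were lower, against 13.1% and 8.33% of all genes. The log2 difference was 0.64 ± 0.12 for *Cyp51* (adjusted p = 0.00489), 0.57 ± 0.11 for *Hmgcs1* (adjusted p = 0.00536) and 0.63 ± 0.14 for *Lss* (adjusted p = 0.00955). It was 0.92 ± 0.25 for *Fdps* (adjusted p = 0.0204), 0.44 ± 0.12 for *Fdft1* (adjusted p = 0.0218) and 0.37 ± 0.12 for *Sqle* (adjusted p = 0.0483). *Insig1* (0.27, adjusted p = 0.120) and *Idi1* (−0.54, adjusted p = 0.153) did not pass.

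The 2 siBrca1 and 2 siBard1 libraries did not overlap for any of the 8 members, *Idi1* being the one lower in siBrca1. The share of all genes without overlap is not given here, so no weight is put on that count. The median log2 difference of the members was 0.50, against 0.03 over all genes. Without the second siBard1 library 0 members passed, without the first 4, without the second siBrca1 library 3 and without the first 6. With library totals in place of the scaling factors 4 members passed as higher, while over all genes 975 were higher and 2198 lower, against 1840 and 1168 with the factors. The second siBard1 library had the highest scaling factor of the 16, in a range of 0.925 to 1.12.

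*Hmgcs1*, *Cyp51* and *Fdft1* were lower in siBard1 than in siWdr5, by log2 differences of −0.59, −0.55 and −0.45 (adjusted p = 0.00634, 0.0134 and 0.0354). That was 3 of 8 lower and 0 higher, against 4.85% and 3.78% of all genes. Leaving out the second siBard1 library, or either siWdr5 library, left 0. Over all genes the split of 530 higher and 680 lower turned to 1671 and 378 with library totals, where 2 members passed as lower. Between siBrca1 and siWdr5 *Lss* alone differed, higher in siBrca1 by 0.53 ± 0.14 (adjusted p = 0.0225), against 10.2% higher and 5.47% lower of all genes, and that call was lost without either siWdr5 library or without the second siBrca1 library.

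Cell state markers moved with these comparisons too. At day 3 the 6 proliferation markers summed to 1255 to 1284 CPM in nt, 739 to 794 CPM in siWdr5, 387 to 729 CPM in siBrca1 and 1020 to 1077 CPM in siBard1, and 6 of 6 were lower in siBrca1 than in siBard1. The 8 fibroblast markers summed to 7790 to 8907 CPM in nt, 16002 to 16338 CPM in siWdr5, 14245 to 14761 CPM in siBrca1 and 10339 to 11890 CPM in siBard1. The 5 adipocyte markers in the table summed to 55.6 to 58.0 CPM in nt, 57.5 to 59.9 CPM in siBard1, 63.8 to 67.8 CPM in siWdr5 and 65.0 to 117.0 CPM in siBrca1. The 4 macrophage markers in the table summed to 7.05 to 8.0 CPM in nt, 11.8 to 14.0 CPM in siWdr5, 16.2 to 17.2 CPM in siBrca1 and 7.92 to 8.68 CPM in siBard1. Of the 8 epithelial markers 3 fell and 1 rose in siWdr5, 2 fell and 2 rose in siBrca1, and 0 fell and 1 rose in siBard1. Over all genes 16.8%, 21.8% and 5.87% fell and 18.3%, 25.4% and 8.67% rose, in the same order. Among the epithelial markers *Cdh1*, E-cadherin, fell by 1.46 on the log2 scale in siWdr5 and by 1.46 in siBrca1 (adjusted p = 0.000150 and 8.26e-05 in limma). The part of these shifts in the members' values was not tested. The 8 pluripotency markers summed at day 3 to 8.56 to 11.1 CPM in nt, 2.42 to 3.08 CPM in siWdr5, 3.90 to 4.93 CPM in siBrca1 and 4.47 to 4.95 CPM in siBard1. Both siBard1 libraries held the lowest levels of the day for 6 of 8 members, and the share of all genes like this is not given here. How the members' levels relate to the marker sums was not tested.

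In the control course, day 6 against day 3 of nt, 4 of 8 members rose and 0 fell, against 19% and 27.1% of all genes. *Insig1* rose by 0.53 ± 0.12 on the log2 scale (adjusted p = 0.00174) and *Cyp51* by 0.45 ± 0.12 (adjusted p = 0.00772). *Idi1* rose by 0.74 ± 0.28 (adjusted p = 0.0411) and *Fdps* by 0.70 ± 0.27 (adjusted p = 0.0416), from the low counts given above. *Hmgcs1* (−0.11), *Sqle* (−0.11), *Fdft1* (0.12) and *Lss* (−0.26) did not pass.

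The median of the members was 0.28, against −0.07 over all genes. The *Insig1* call held in 14 of 14 alternatives. Without the second nt library of day 3 or the first of day 6, 1 member passed, and without the second of day 6, 2. With library totals 3496 of all genes were higher and 2806 lower, against 2667 and 3807 with the scaling factors, and 4 members still passed. Proliferation markers fell to 739 to 781 CPM and epithelial markers rose over the same days, and their part was not tested.

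At day 6 0 of 8 members passed in any knockdown against nt by limma. At an unadjusted p under 0.05 there were 2 in siWdr5, 1 in siBrca1 and 0 in siBard1, and limma-voom on the recovered reads also called 0. At that adjusted threshold 16.1% of all genes passed as higher and 5.7% as lower in siWdr5. The shares were 0% and 0% in siBrca1, and 0.0784% and 0% in siBard1, so the last 2 comparisons called next to nothing anywhere. The lowest adjusted p among the members was 0.0779, for *Cyp51* in siWdr5, at a log2 fold change of −0.34. *Cyp51* and *Insig1* were below nt in all 6 knockdown libraries, with log2 fold changes from −0.34 to −0.23 and from −0.30 to −0.24. These comparisons share the nt libraries of day 6, so they are not independent of each other. The share of all genes like this is not given here.

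**Figure D3:**
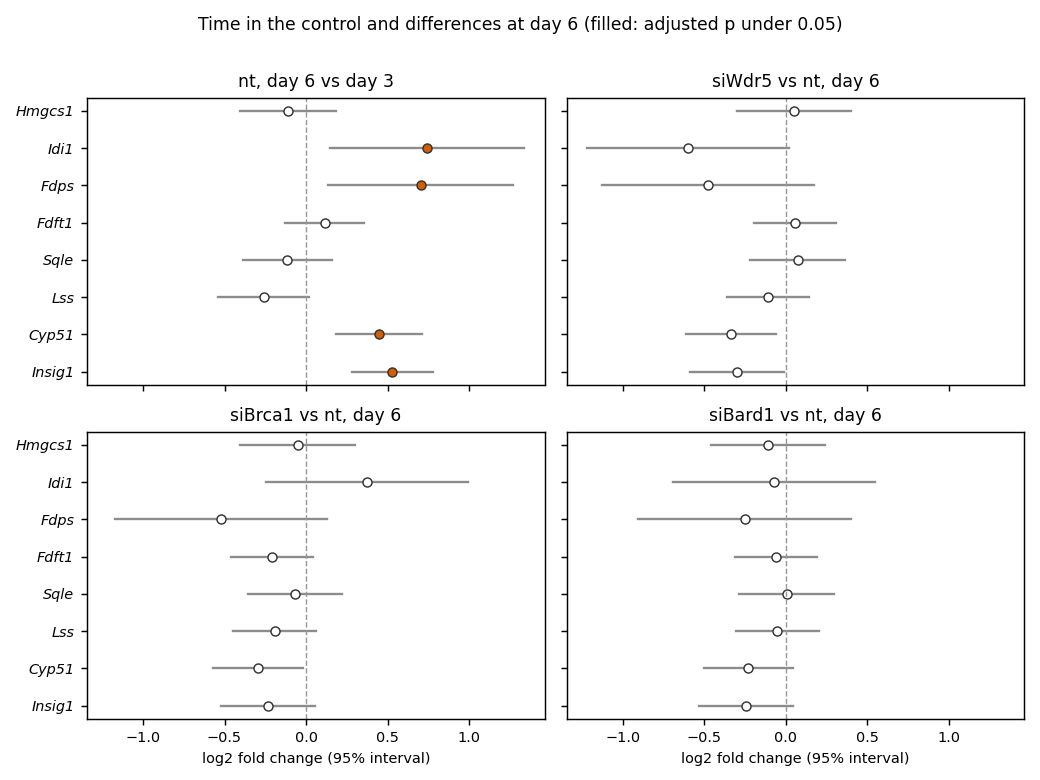
Log2 fold change of each gene (horizontal axis) between day 6 and day 3 of nt and between each knockdown and nt at day 6; points are fitted values, lines are 95% intervals, and filled points passed in limma. The 4 filled points, *Idi1*, *Fdps*, *Cyp51* and *Insig1*, are right of 0 in the nt course, and none is filled in the day 6 knockdowns.

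Whether a knockdown's effect differed between the days was tested directly, as the day 6 change minus the day 3 change. *Cyp51* in siBrca1 was the member that passed, at −0.55 ± 0.17 (adjusted p = 0.0363). It was above nt at day 3 and below it at day 6, though it passed against nt on neither day. That was 1 of 8 lower and 0 higher, against 10.3% and 10.3% of all genes. No member passed in siWdr5 (3.4% of all genes higher and 1.03% lower) or in siBard1 (0.0214% and 0.0285%). The siBard1 falls of day 3 were therefore not shown to differ from the values of day 6, where no member passed. That test called next to nothing over all genes, so it could hardly show a difference.

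The other genes of the pathway were read from lists of named genes. Of 12 other enzymes of mevalonate and sterol synthesis 0 rose and 1 fell in siBard1 at day 3, against 8.67% and 5.87% of all genes. Their median log2 fold change was −0.21. The gene that fell was *Dhcr7* (−0.86, adjusted p = 0.00146 in limma), which reduces 7-dehydrocholesterol, and it passed in 15 of 15 alternatives. *Dhcr7* also fell in siWdr5 (−0.85, adjusted p = 0.000423) and siBrca1 (−0.67, adjusted p = 0.00119).

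In siBrca1 5 of the 12 rose and 1 fell, against 25.4% and 21.8% of all genes. The rises were led by *Hsd17b7* (0.99, adjusted p = 0.000139 in limma) and *Sc5d* (0.73, adjusted p = 0.000354), both of the post-lanosterol steps. In siWdr5 2 rose and 3 fell, against 18.3% and 16.8% of all genes. The 2 were again *Hsd17b7* (0.81, adjusted p = 0.00112 in limma) and *Sc5d* (0.52, adjusted p = 0.00559). Among the 3 was *Pmvk*, phosphomevalonate kinase (−0.69, adjusted p = 0.00659). Between siBrca1 and siBard1 7 of 12 were higher and 0 lower, against 13.1% and 8.33% of all genes. The median was 0.46, against 0.03 over all genes. *Mvd*, mevalonate diphosphate decarboxylase, differed most at 1.3 (adjusted p = 0.00373), followed by *Hsd17b7* at 0.90 (adjusted p = 0.00420) and *Msmo1*, the sterol methyl oxidase, at 0.63 (adjusted p = 0.00911).

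*Srebf2*, the gene of SREBP2, fell in siBard1 at day 3 (−0.49, adjusted p = 0.0119) and was the member of the 6 SREBP pathway regulators that passed there, in 11 of 15 alternatives. It was at −0.05 in siWdr5 and 0.07 in siBrca1 (adjusted p = 0.739 and 0.620), and it was higher in siBrca1 than in siBard1 by 0.56 (adjusted p = 0.00564). *Srebf1*, which drives fatty acid genes, was at −0.38, −0.18 and −0.34 in siBard1, siWdr5 and siBrca1 and did not pass. *Insig2*, the second INSIG gene, rose in siBrca1 (1.06, adjusted p = 0.000333).

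**Figure D4:**
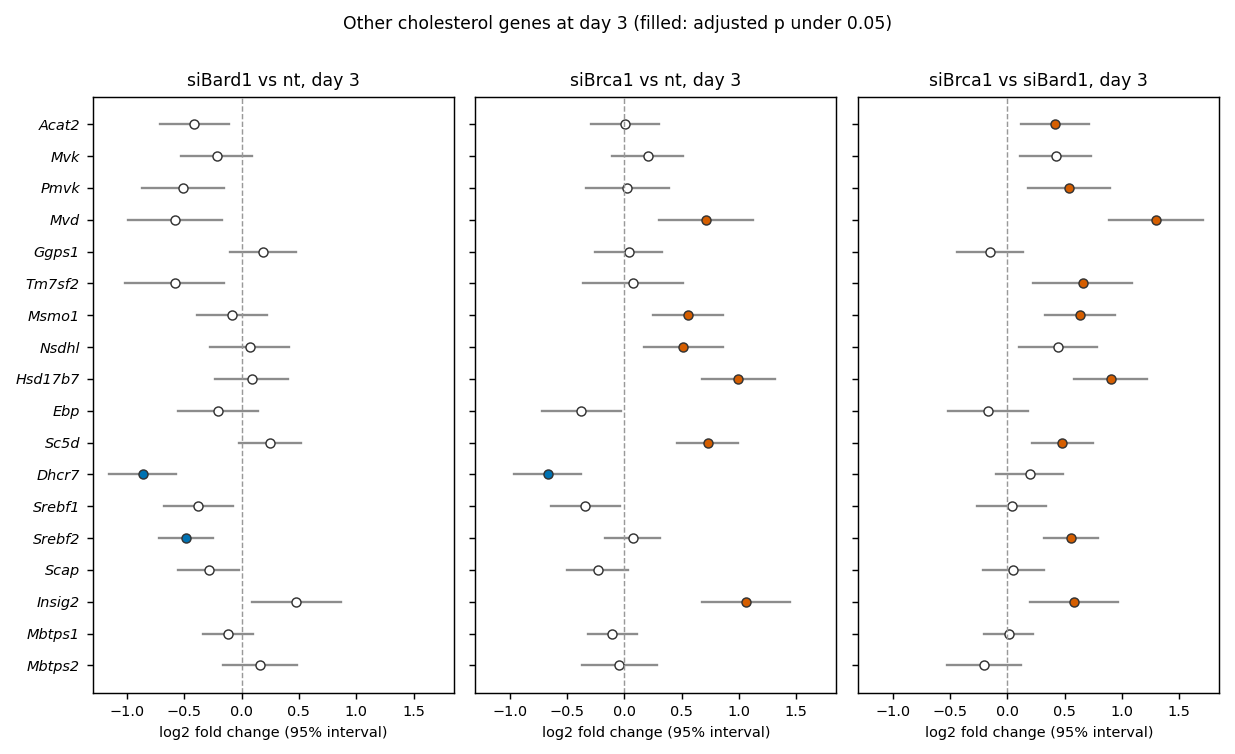
Log2 fold change at day 3 (horizontal axis) of 12 other synthesis enzymes and 6 regulators of the SREBP pathway in 3 comparisons; points are fitted values, lines are 95% intervals, and filled points passed in limma. In siBard1 against nt the filled points are *Dhcr7* and *Srebf2*, both left of 0, and between siBrca1 and siBard1 the filled points are all right of 0.

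Of 8 uptake and transport genes 5 rose in siWdr5, 7 in siBrca1 and 2 in siBard1 at day 3, and 0 fell in any of the 3. Over all genes 18.3%, 25.4% and 8.67% passed as higher and 16.8%, 21.8% and 5.87% as lower. The list holds genes of different roles, *Mylip* among those that rose in siWdr5, so these counts are not a measure of uptake. *Lipa*, lysosomal acid lipase, rose in all 3, by 0.78, 1.16 and 0.70 in siWdr5, siBrca1 and siBard1 (adjusted p = 0.00245, 8.34e-05 and 0.0125). *Lrp1*, an endocytic receptor, rose by 0.94 in siWdr5 and 1.06 in siBrca1 (adjusted p = 0.000290 and 6.80e-05). The fibroblast marker sums given above were highest in these 2 knockdowns, and their part was not tested.

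Of 9 genes of fatty acid synthesis and desaturation 9 were below 0 in siBard1 at day 3 and 2 passed, *Fasn*, fatty acid synthase (−0.51, adjusted p = 0.0254), and *Elovl6*, an elongase (−0.37, adjusted p = 0.0380). In siBrca1 3 rose and 3 fell, and in siWdr5 0 rose and 2 fell. Of all genes 8.67% rose and 5.87% fell in siBard1, 25.4% and 21.8% in siBrca1, and 18.3% and 16.8% in siWdr5. In the nt course 1 rose and 5 fell, against 19% and 27.1% of all genes. The falls were led by *Acaca*, acetyl-CoA carboxylase (−0.997, adjusted p = 6.12e-06 in limma), and *Fasn* (−0.93, adjusted p = 6.32e-05). Of the 12 other sterol enzymes 4 rose and 0 fell over that course. *Msmo1* rose most of these at 1.31 (adjusted p = 6.60e-06).

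Among 8 genes of efflux, esterification and oxysterol response *Soat1*, which esterifies cholesterol, rose in all 3 knockdowns at day 3, by 0.78 in siWdr5, 0.72 in siBrca1 and 0.52 in siBard1 (adjusted p = 0.000110, 0.000104 and 0.00599). In siWdr5 2 of the 8 rose and 2 fell, in siBrca1 4 rose and 0 fell, and in siBard1 *Soat1* alone passed. Of all genes 18.3%, 25.4% and 8.67% rose and 16.8%, 21.8% and 5.87% fell in siWdr5, siBrca1 and siBard1. *Ch25h*, which makes 25-hydroxycholesterol, rose by 1.25 in siWdr5 and 0.70 in siBrca1 (adjusted p = 0.000637 and 0.0143). *Abcg1*, a sterol exporter, fell by 1.44 on the log2 scale in siWdr5 (adjusted p = 0.00659), where it rested on 8 reads in each library. In the nt course 4 of the 8 rose and 1 fell, against 19% and 27.1% of all genes. *Apoe*, the lipid carrier of lipoproteins, was at 3.37 (adjusted p = 6.34e-07 in limma) and *Abcg1* at 1.61 (adjusted p = 0.000278).

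Across the 16 libraries, after the mean of each day was taken off each gene, the members other than *Idi1* correlated above 0 with each other. Of the 28 pairs of all 8 members 22 had a correlation above 0, with a median r of 0.52 and a range from −0.43 to 0.85. The pairs below 0 all held *Idi1*, and r for pairs of other genes is not given here. *Cyp51* was nearest to the mean of the 8 (r = 0.92) and *Idi1* farthest from it (r = 0.02), each gene being itself part of that mean. These points share libraries and scaling, and each group contributes a pair, so r is given as a description. The mean of the 8 was lowest in the siBard1 libraries of day 3, at −0.24 and −0.32 on the day-centred log2 scale, against −0.01 to 0.18 in the other 6 libraries of that day. At day 6 it lay between −0.15 and 0.12, highest in the nt pair.

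**Figure D5:**
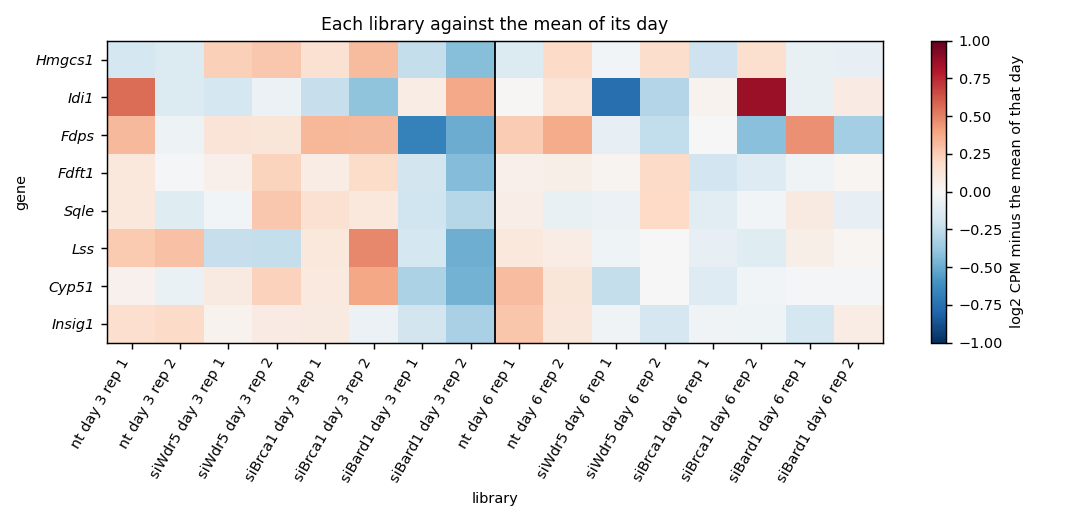
Each gene in each of the 16 libraries (columns, day 3 left of the black line) as log2 CPM minus the mean of its day; red is above and blue below that mean, and the scale runs from −1 to 1. The pair of siBard1 columns at day 3 is blue in all rows but *Idi1*, whose deepest red is the second siBrca1 library of day 6.

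By the same measure, the genes reported here whose day-centred pattern over the 16 libraries was most like the mean of the 8 were *Zbtb25* (r = 0.85), *Aldoc* (0.80), *5031434O11Rik* (0.77), *Trabd* (0.75), *Mvd* (0.75), *Scd2* (0.75), *Pcyt2* (0.74), *Chrnb2* (0.74), *Tkt* (0.74) and *Zfyve27* (0.74). *Mvd* is an enzyme of the mevalonate pathway and *Scd2* a fatty acid desaturase. Of these 10 genes 7 were also among the nearest 10 when each library was centred on its median gene.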

How the data were processed

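RNA of whole reprogramming cultures was sequenced as ribosome-depleted paired-end libraries of 43-base reads. The authors aligned the reads with STAR 2.5.2b to mm10 (GRCm38) and deposited log2 CPM, which per the submitters' processing notes came from edgeR 3.20.9. The read counter, its annotation, strand setting and low-count filter are not given in the sources used here. The study's test on read counts was replaced by limma, since the deposited values are log2 CPM and not counts.

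The deposited values stepped in whole reads in every library (100% of values within 0.05 of a whole read), which gave the library totals and the scaling factors. CPM in the text is 2 to the power of the deposited value, and includes the small prior count the authors added. Library columns without a sample numbered 0. limma 3.58.1 (R 4.3.3) was run two-sided on genes whose log2 CPM averaged 0 or more across all 16 libraries, with a trend on mean expression and Benjamini-Hochberg adjustment, on the 8 libraries of a day or on all 16 across days, and was tested on simulated data.

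Replicates share only a number in the labels. The 8 genes and all gene lists were chosen with earlier results of these data known. From each list the genes named were the up to 4 with the smallest adjusted p among those that passed, and *Srebf1* and *Srebf2* always. Some genes of the lists are not reported here and were left out of the lists' counts and medians. Exon bases and shared windows came from GENCODE vM21. Alternatives were other filters, scalings, sample sets and tools, the replicate number as a block, and each library left out.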

Additional observations from a re-analysis of the deposited data

Results flagged for a closer look

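*Cyp51* under siBrca1 lay above the control at day 3 and below it at day 6, but neither day's difference passed. By limma against nt its log2 fold change was 0.26 at day 3 and −0.29 at day 6 (adjusted p = 0.098 and 0.592). Its change at day 6 less that at day 3 came to −0.55 on the log2 scale (95% interval −0.92 to −0.18, adjusted p = 0.0363 in limma over all 16 libraries). In that test 10.3% of all genes passed as lower. Both siBrca1 libraries were above both nt libraries at day 3 and below them at day 6. It passed in 11 of 18 alternatives, with adjusted p between 0.0101 and 0.174. Among the libraries, the call was lost without either nt library or the second siBrca1 library of day 3, and without the first nt or the first siBrca1 library of day 6. For siWdr5 the same difference was −0.51 (adjusted p = 0.0962). For siBard1 it was 0.15 (adjusted p = 0.664), and whether the 3 knockdowns differ in it was not tested.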

How the results depend on the processing

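Each group held 2 libraries, so leaving one out leaves an arm of 1 that is assumed to vary like the others, and many calls of single members were lost that way. Of 124 single-gene results under settings that kept all libraries, 1308 of 1324 values kept their direction and 16 turned. These results held every member only for the day 3 knockdowns against nt, siBrca1 against siBard1 and the nt course. In the other comparisons they held only members that passed, and so none for the day 6 knockdowns against nt. The turns and ranges listed below are limited in the same way. The filters, the choice of groups in the fit, the trend and the replicate block cannot change a fold change here. Only the scalings, a larger prior count and limma-voom could turn one, so this ratio is not a measure of stability. Depth limited *Fdps* and *Idi1* most, which is why *Fdps* has no value at a mean log2 CPM of at least 2. The cause of the changes below was not tested, apart from fewer samples when a library is left out.

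The number of members higher in siBrca1 than in siBard1 at day 3, 6 as reported, was 3 with no filter, 2 with the compared groups only, 0 with no trend on expression and 0 to 6 with one library left out. The number lower in siBard1 against nt, 3 as reported, was 1 with no filter, 1 with no trend, 5 with quantile normalization and 0 to 1 with one library left out. Against siWdr5 it was 1 with no trend, 5 with median centring and 0 to 3 with one library left out. The *Lss* call between siBrca1 and siWdr5 was lost (0 members) with no filter, with the compared groups only and with no trend, and 0 to 1 members passed with one library left out. In siWdr5 at day 3 the 1 member lower became 0 with no trend, and leaving out a library gave 0 higher and 0 lower. In siBrca1 it gave 0 to 2 higher and 0 to 1 lower. In siWdr5 at day 6, 1 member was lower with median centring, 1 with library totals and 2 with quantile normalization. For the day 6 change minus the day 3 change, 1 member was lower in siWdr5 with the compared groups only, with median centring and with quantile normalization, and 0 in siBrca1 with the compared groups only and with no trend, where leaving out a library gave 0 to 2 lower and 0 to 1 higher. In the nt course 1 to 4 members rose with a library left out, and 1 fell with the compared groups only. With an absolute log2 fold change above 1 required as well, every member count was 0.

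Among the single-gene results counted above, directions turned as follows, on the log2 scale. Members in the day 6 knockdowns against nt were not among these results, so any turns there are not listed. Under quantile normalization *Fdps* in siWdr5 at day 3 was at 0.0557, *Lss* and *Srebf2* in siBrca1 at −0.0028 and −0.0717, *Idi1* in siBard1 at −0.0081 and *Srebf1* between siBrca1 and siBard1 at −0.0296. In the nt course *Hmgcs1*, *Sqle* and *Srebf2* were then at 0.0666, 0.0909 and 0.151. With library totals *Lss* in siBrca1 was at −0.047 and *Srebf1* between siBrca1 and siBard1 at −0.11, and in the nt course *Hmgcs1*, *Sqle* and *Srebf2* were at 0.0203, 0.017 and 0.0702. Library totals moved the median of all genes between siBrca1 and siBard1 from 0.03 to −0.11, between siBard1 and siWdr5 from 0.00 to 0.17 and in the nt course from −0.07 to 0.06. With median centring *Fdps* and *Srebf2* in siWdr5 were at 0.0547 and 0.0129, and by limma-voom on recovered reads *Fdps* was at 0.0007.

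With one library left out, *Sqle*, *Idi1* and *Fdps* in siWdr5 at day 3 ranged from −0.0204 to 0.279, −0.681 to 0.0162 and −0.201 to 0.178. *Lss* in siBrca1 ranged from −0.17 to 0.21, *Idi1* in siBard1 from −0.34 to 0.36 and *Srebf1* between siBrca1 and siBard1 from −0.18 to 0.26. In the nt course *Hmgcs1*, *Sqle* and *Srebf1* ranged from −0.271 to 0.0495, −0.231 to 0.002 and −0.0923 to 0.104.

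The replicate block left every member count as reported, 6 of 8 higher between siBrca1 and siBard1 included. Of the other genes *Srebf1* then passed as lower at day 3 in siBard1 and siBrca1 (adjusted p = 0.0350 and 0.0246 in limma), and *Acaca* in siWdr5 no longer passed (adjusted p = 0.0587). The replicate numbers share only a number: the correlation of replicate differences between groups of a day ran from −0.09 to 0.26.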
